A study of Mus musculus with 9 samples.

Results

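Mouse cortical astrocytes left for 3 days after a 90 min pulse of noradrenaline (3 d) were compared with astrocytes harvested at the end of that pulse (90 min). The comparison asks how completely the acute changes in mRNA were undone, and which genes separate the treated groups most. Its members are the 3 libraries titled noradrenaline, 3 days, and the 3 titled noradrenaline, 90 min, which make 6 of the 9 libraries. The other 3 libraries come from unstimulated cells and served as the baseline to which a gene could return. All 22100 genes of the deposited table were considered, and 13090 had enough counts to be tested.

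Astrocytes are glial cells that support neurons, and here they were grown on coated plastic in medium with 10% serum. Cells of both treated groups received 50 µM noradrenaline for 90 min. In the 3 d group the medium was then replaced by one without the drug. Titles of the unstimulated libraries name the 3 day time, so no matched 90 min control entered the analysis. The labels leave unsaid whether these cells also had their medium changed. The drug, the change of medium and the later collection therefore cannot be told apart in any difference between 3 d and 90 min. Between 90 min and control, the drug and the time of collection cannot be told apart either. The labels do not state that replicates are separate cultures, so each p-value reflects only how far these libraries scatter, a scatter that may be technical. In bulk RNA, fewer cells of a type and less RNA per cell cannot be told apart.

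Noradrenaline is released in the cortex by fibres from the locus coeruleus and reaches astrocytes through α and β adrenoceptors. β receptors raise cyclic AMP, which activates protein kinase A and the transcription factor CREB. CREB binds the cyclic AMP response element in promoters and switches on early genes, many of which code for transcription factors with short-lived mRNA or for inhibitors that shut the same pathway down. In astrocytes this signalling is known for glycogen breakdown and for the release of growth factors.

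Library totals ranged from 15529158 to 18729980 counts. Levels are given as CPM, the counts of a gene scaled to a common library size, after correction by the trimmed mean of M values (TMM), with libraries 1, 2 and 3 of a group in that order. TMM factors were 1.02 in every 3 d library, 0.961 to 0.966 at 90 min and 1.01 to 1.02 in controls. The culture label was checked against markers, which cannot give the share of astrocytes in the cultures. The astrocyte marker Gjb6 had at most 2 counts in any library and was not tested. Of 14 astrocyte markers 13 were tested, with a summed level of 761 to 774 CPM at 3 d, 728 to 761 CPM at 90 min and 770.0 to 797 CPM in controls. Gfap stood at 1.37, 1.76 and 1.22 CPM at 3 d, 1.45, 1.67 and 1.44 CPM at 90 min and 1.4, 0.823 and 1.18 CPM in controls. The filament gene Gfap, a classical astrocyte marker, was thus low, though above the 0.158 to 0.190 CPM that 3 counts give. Vim was at 3765, 3770.0 and 3964 CPM in the 3 d libraries, 4098, 4165 and 3799 CPM in the 90 min libraries and 4066, 3879 and 4061 CPM in controls. Vim codes for the filament vimentin of immature and cultured astrocytes, and neither filament gene was called between 3 d and 90 min (log2 -0.08 and -0.07, edgeR adjusted p = 0.841 and 0.203). Fibroblast and meningeal markers summed to 2106 to 2321 CPM at 3 d, 2297 to 2785 CPM at 90 min and 2551 to 2828 CPM in controls, led by the collagen gene Col1a1. The oligodendrocyte lineage genes Olig1 and Olig2, the microglia genes P2ry12, C1qa and C1qb, the endothelial genes Cldn5 and Tie1 and the choroid plexus gene Ttr were at 0 counts in all 9 libraries. Other members of these lists did have counts. At 3 d the 3 tested microglia markers summed to 209.7 to 220 CPM and the 6 tested oligodendrocyte lineage markers to 90.66 to 94.28 CPM. The 6 tested endothelial markers summed to 66.99 to 71.76 CPM at 3 d. The 1 tested choroid plexus marker stood at 23.98 to 26.26 CPM and the 5 tested neuron markers summed to 130.8 to 144.9 CPM at 3 d. In every group the fibroblast and meningeal sum lay above the astrocyte sum.

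Promoter stretches of 6 genes that the results turn on are shown first, because they hold the short sites that CREB binds. They are parts of RefSeq promoter windows of build GRCm38.p6 and are written 5′ to 3′ on the strand of the gene. Capitals mark the core site TGACG, the shorter form of the element, or CGTCA where it lies on the other strand, and the full element TGACGTCA where both overlap. Of the genes named by rule that had a window, only Maff and Errfi1 held the full element in the 250 bases before a start. Nr4a3, Nr4a2, Fos and Fgf9 were chosen after their values were seen. Nr4a3 lies on the plus strand at chr4:48045065-48045174, Nr4a2 on the minus strand at chr2:57124104-57124213, and Maff on the plus strand at chr15:79347440-79347519. Errfi1 (chr4:150854970-150855069), Fos (chr12:85473750-85473839) and Fgf9 (chr14:58072586-58072685) lie on the plus strand.
Nr4a3: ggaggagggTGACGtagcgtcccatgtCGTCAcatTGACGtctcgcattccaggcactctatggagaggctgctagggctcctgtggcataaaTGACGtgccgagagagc
Nr4a2: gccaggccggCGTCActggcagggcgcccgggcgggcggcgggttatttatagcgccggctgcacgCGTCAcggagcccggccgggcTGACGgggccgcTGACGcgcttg
Maff: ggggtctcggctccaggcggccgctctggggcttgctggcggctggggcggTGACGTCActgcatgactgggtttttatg
Errfi1: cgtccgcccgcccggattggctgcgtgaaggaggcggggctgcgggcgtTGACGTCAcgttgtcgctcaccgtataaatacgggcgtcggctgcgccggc
Fos: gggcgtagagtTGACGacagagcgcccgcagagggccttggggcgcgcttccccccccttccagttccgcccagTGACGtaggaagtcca
Fgf9: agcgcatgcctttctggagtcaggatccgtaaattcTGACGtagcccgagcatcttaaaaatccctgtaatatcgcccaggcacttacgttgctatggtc
Nr4a3 and Nr4a2 each held 4 core sites, within 231 to 147 and 200 to 111 bases before the transcription start. In Maff the full element lay 29 bases before the start and in Errfi1 51 bases before it, and other annotated starts of both genes had windows without it. Fos held core sites 129 and 66 bases before its start. Fgf9, which was higher at 3 d, also held a core site, 64 bases before its start. Other genes that were much lower at 3 d held no core site in the 250 bases before their start. Among them were Ramp3, Slc1a1, Fosl2, Dusp10, Inhba and Ern1.

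Each motif was searched as an exact word on both strands, in windows from 250 bases before to 50 bases after a start, for the 10418 tested genes with a window. The full element TGACGTCA was found in 3.63% of all these genes. It was found in 6 of 38 genes at least 8-fold lower at 3 d (15.8%), in 23 of 287 genes at least 2-fold lower (8.01%) and in 3 of 105 genes at least 2-fold higher (2.86%). The core site TGACG, which the full element contains on both strands, was found in 53% of the 2-fold lower genes, 20% of the 2-fold higher genes and 34.9% of all. The AP-1 word TGANTCA, bound by FOS and JUN proteins, was found in 10.8% of the 2-fold lower genes, 9.52% of the 2-fold higher genes and 6.16% of all. The word AAAGGTCA, bound by the NR4A receptors, was found in 0.348%, 0.952% and 1.12% of the same sets. Of the 38 genes at least 8-fold lower, 21 held the core site (55.3%), 7 the AP-1 word (18.4%) and 0 the word AAAGGTCA. The AP-1 word was thus found in about as many of these 38 genes as the full element. A gene counted when any of its windows matched, with a mean of 1.38 windows for the 2-fold lower genes and 1.28 for all. In genes with 1 window the AP-1 shares were 7.27%, 7.5% and 4.43% for 2-fold lower, 2-fold higher and all genes. Those of the full element were 6.82%, 3.75% and 3.41%. Windows of the 2-fold lower genes held 20.7 CpG dinucleotides on average, those of the 2-fold higher genes 16.2 and those of all genes 20.6, and the part of base composition in these shares was not tested. The shares describe letters in a window and carry no test.

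At 3 d, 5110 of the 13090 genes tested (39%) differed from 90 min at an adjusted p below 0.05, and are called changed. Of these, 2442 were higher at 3 d (18.7% of genes tested) and 2668 were lower (20.4%). Most changes were small, with a median log2 difference of 0.32 among the higher genes and -0.32 among the lower ones. Large changes ran mostly one way. At least 2-fold, 134 genes were higher (1.02%) and 382 lower (2.92%), at least 4-fold 10 were higher and 129 lower, and at least 16-fold 2 were higher and 21 lower. Over all genes tested the median log2 difference was 0.00158. With upper quartile scaling that median was 0.0519, and 3305 genes were called higher and 2030 lower (61.9% of calls higher, against 47.8% with TMM). The ranges of the 3 d and 90 min libraries did not overlap in 6168 genes (47.1%).

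**Figure D1:**
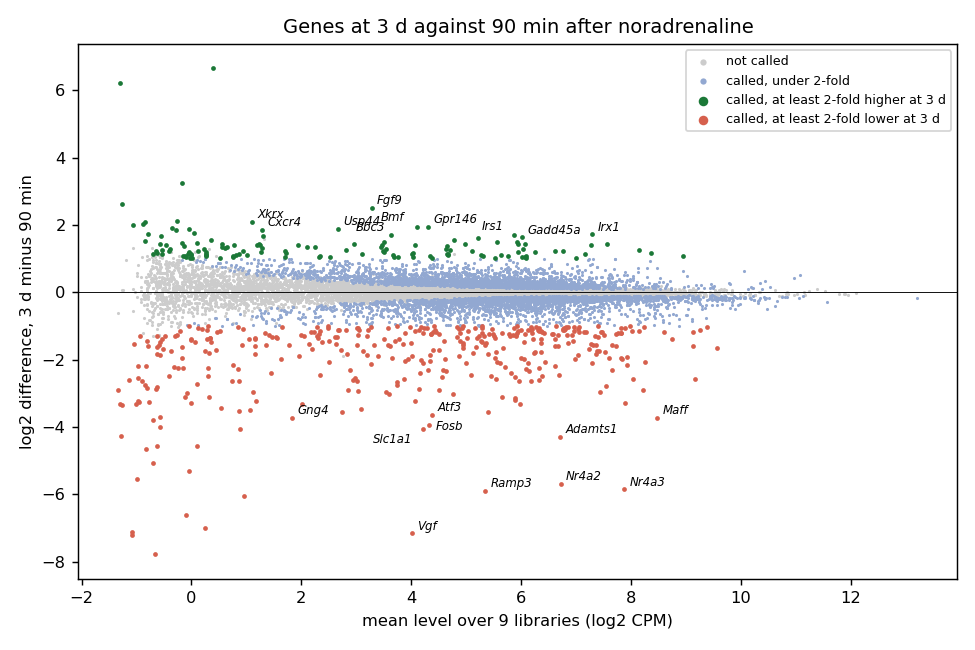
Log2 difference between 3 d and 90 min (vertical axis) against the mean level over the 9 libraries in log2 CPM (horizontal axis), 1 point per tested gene. The 10 highest and 10 lowest genes picked by rule are named, and the lower side reaches further, to -7.16 for Vgf against 2.52 for Fgf9. Unnamed points beyond these values at the left are genes with few counts, and where a group is at 0 counts the fitted value depends on the prior count.

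Among genes that averaged 1 or more in log2 CPM over all libraries, those lowest at 3 d against 90 min were Vgf, Ramp3, Nr4a3 and Nr4a2. For Vgf the levels were 0.158, 0.51 and 0.318 CPM at 3 d, 43.9, 52.7 and 45.5 CPM at 90 min and 0.216, 0.253 and 0.371 CPM in controls. Vgf codes for a secreted neuropeptide precursor and is a known CREB target. Its 3 d and control libraries held 3 to 9 counts each, so the difference of -7.16 on the log2 scale (SE 0.33, edgeR adjusted p = 5.98e-16) rests on few counts on one side. Ramp3 measured 1.95, 1.87 and 2.06 CPM at 3 d, against 117, 129 and 106 CPM at 90 min and 1.94, 1.52 and 1.85 CPM in controls. Ramp3 codes for a partner of calcitonin family receptors that sets which ligand they bind. Ramp3 was 59.6-fold lower at 3 d than at 90 min (log2 -5.90, SE 0.14, edgeR adjusted p = 6.35e-18). At 3 d the levels overlapped the controls and lay far below those at 90 min.

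Levels of Nr4a3 mRNA were 10.5, 12 and 12.8 CPM at 3 d, 674, 684 and 691 CPM at 90 min and 5.99, 7.98 and 8.53 CPM in controls. Nr4a3 was 58-fold lower at 3 d than at 90 min (log2 -5.86, SE 0.08, edgeR adjusted p = 1.51e-19). The 3 groups did not overlap, and the 3 d libraries lay above every control. Nr4a2 stood at 7.15, 5.16 and 5.35 CPM at 3 d, 331, 274 and 309.9 CPM at 90 min and 3.83, 4.56 and 4.64 CPM in controls. Nr4a2 was 51.6-fold lower at 3 d than at 90 min (log2 -5.69, SE 0.12, edgeR adjusted p = 5.96e-18). The proteins of this family are nuclear receptors without a known natural ligand, and their activity follows their amount. For Nr4a2 every 3 d library lay above the highest control, but that difference was not called (log2 0.45, edgeR adjusted p = 0.391). Over all genes tested, the 3 d and control ranges lay apart in 16.1%.

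Maff was at 70.5, 70.6 and 69.8 CPM in the 3 d libraries, 938, 975 and 874 CPM in the 90 min libraries and 56.4, 62.5 and 67.6 CPM in controls. MAFF is a small partner protein of basic leucine zipper factors. Maff was 13.2-fold lower at 3 d than at 90 min (log2 -3.73, SE 0.05, edgeR adjusted p = 3.21e-18). At 3 d all libraries lay above all controls, by a difference that was not called (log2 0.18, edgeR adjusted p = 0.346). Ranges apart from control were found in 16.1% of all genes tested. For Adamts1 the levels were 15.1, 15.3 and 13.2 CPM at 3 d, 286, 274 and 299 CPM at 90 min and 13.4, 12.5 and 15.2 CPM in controls. Adamts1 codes for a secreted protease that cuts proteoglycans. Adamts1 was 19.7-fold lower at 3 d than at 90 min (log2 -4.30, SE 0.07, edgeR adjusted p = 2.13e-18). Slc1a1 measured 3.94, 2.89 and 2.17 CPM at 3 d, against 46, 52.8 and 52.1 CPM at 90 min and 2.11, 2.15 and 2.16 CPM in controls. Slc1a1 codes for EAAT3, a glutamate transporter best known from neurons. Slc1a1 was 16.7-fold lower at 3 d than at 90 min (log2 -4.06, SE 0.14, edgeR adjusted p = 1.78e-14).

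Levels of Fosb mRNA were 3.42, 2.89 and 4.08 CPM at 3 d, 54.6, 49.4 and 56.1 CPM at 90 min and 2.65, 3.29 and 2.78 CPM in controls. Atf3 stood at 4.26, 4.25 and 4.24 CPM at 3 d, 51.7, 53.7 and 54.5 CPM at 90 min and 3.78, 5 and 4.45 CPM in controls. FOSB and ATF3 are early transcription factors of the leucine zipper class. Fosb was 15.3-fold and Atf3 12.5-fold lower at 3 d (log2 -3.94, SE 0.12, edgeR adjusted p = 2.58e-15, and log2 -3.65, SE 0.10, edgeR adjusted p = 7.33e-16). In both genes the 3 d libraries overlapped the control range. Gng4 was at 0.789, 0.681 and 0.583 CPM in the 3 d libraries, 8.67, 10.4 and 8.24 CPM in the 90 min libraries and 0.432, 0.76 and 0.556 CPM in controls. Gng4, which codes for a G protein γ subunit, was 13.2-fold lower (log2 -3.72, SE 0.24, edgeR adjusted p = 4.49e-11).

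**Figure D2:**
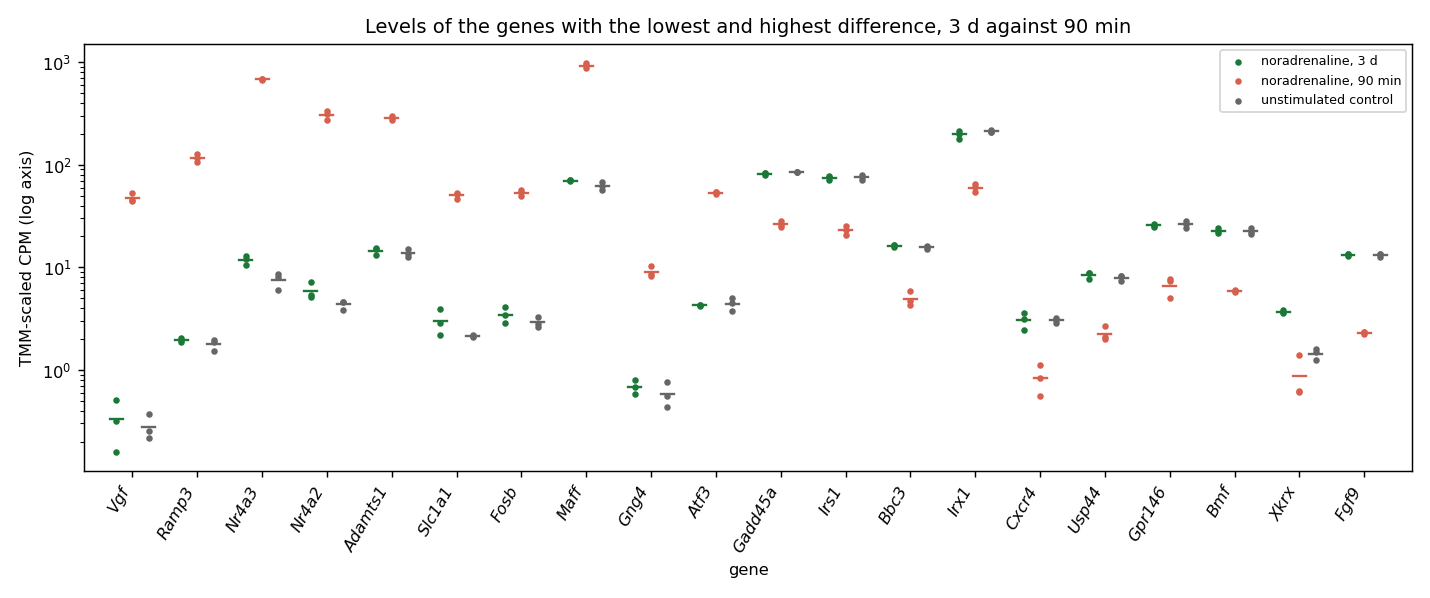
Levels in each library (points, TMM-scaled CPM on a log axis) and group means (bars) for the 10 lowest genes from Vgf to Atf3 and the 10 highest from Gadd45a to Fgf9. The 3 d points overlap the control points except in Nr4a3, Nr4a2, Maff, Slc1a1 and Xkrx, where all lie above the controls, and in Gadd45a, where all lie below. Over all genes tested, 16.1% had 3 d and control ranges apart.

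Genes that were higher at 3 d moved over a smaller range. For Fgf9 the levels were 12.8, 13.5 and 13.3 CPM at 3 d, 2.24, 2.33 and 2.34 CPM at 90 min and 13.4, 12.7 and 13.5 CPM in controls. Fgf9 was 5.72-fold higher at 3 d than at 90 min (log2 2.52, SE 0.12, edgeR adjusted p = 2.94e-12). Fgf9 codes for a secreted growth factor with roles in glial development, and its 3 d libraries overlapped the controls. Gpr146 measured 26.4, 24.9 and 25.5 CPM at 3 d, against 7.61, 7.28 and 5.05 CPM at 90 min and 26.6, 24.2 and 28.4 CPM in controls. Levels of Bmf mRNA were 22.6, 21.4 and 24 CPM at 3 d, 5.87, 5.78 and 5.95 CPM at 90 min and 24, 22.1 and 21.3 CPM in controls. Gpr146, an orphan receptor gene, and Bmf, a death-promoting BCL2 family gene, were 3.83-fold and 3.86-fold higher at 3 d (log2 1.94, SE 0.12, edgeR adjusted p = 1.48e-10, and log2 1.95, SE 0.09, edgeR adjusted p = 4.79e-12). Neither gene had overlapping 3 d and 90 min libraries, which the rule that picked them required.

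Irs1 stood at 76.3, 77.9 and 71.1 CPM at 3 d, 20.8, 25.4 and 23.1 CPM at 90 min and 80.4, 71.4 and 76.4 CPM in controls. Irs1 codes for the adaptor that couples the insulin and IGF receptors to PI3 kinase. Irs1 was 3.25-fold higher at 3 d than at 90 min (log2 1.70, SE 0.07, edgeR adjusted p = 7.22e-13). Irx1 was at 178, 200.1 and 216 CPM in the 3 d libraries, 60.8, 65.4 and 53.7 CPM in the 90 min libraries and 217, 210.4 and 209 CPM in controls. Irx1 was 3.3-fold higher at 3 d than at 90 min (log2 1.72, SE 0.07, edgeR adjusted p = 7.19e-13). IRX1 is a homeobox factor. For Gadd45a the levels were 82.5, 78.8 and 83.7 CPM at 3 d, 28.2, 24.8 and 26 CPM at 90 min and 85.2, 85 and 84.4 CPM in controls. Gadd45a, a growth arrest and DNA damage gene, was 3.10-fold higher, and Bbc3, which codes for the death-promoting protein PUMA, was 3.27-fold higher at 3 d (log2 1.63 and 1.71, edgeR adjusted p = 3.92e-14 and 3.17e-10). Cxcr4, a chemokine receptor gene, and Usp44, a deubiquitinase gene, were 3.62-fold and 3.71-fold higher (log2 1.85 and 1.89, edgeR adjusted p = 1.24e-05 and 6.19e-09), Cxcr4 with at most 3.57 CPM in any library.

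Genes changed at least 2-fold and called at 90 min against control are named acute here. As the controls are titled 3 days, the drug and the time of collection cannot be told apart in an acute change. There were 499 of them, 382 higher (2.92% of genes tested) and 117 lower (0.894%) at 90 min. At 3 d, 476 of the 499 were called in the opposite direction against 90 min, 23 were not called and 0 had moved further from control with a call. Over all genes tested 39% were called at 3 d against 90 min. The acute genes were selected on the same 90 min libraries, so these counts do not measure return. The median distance from control was 0.09 on the log2 scale at 3 d and 1.49 at 90 min. Across all genes tested the median distance of 3 d from control was 0.06. The share of the acute log2 change that was undone had a median of 97.1%, with quartiles of 91.5% and 102% and 5th and 95th percentiles of 60.7% and 116%. The median was 97.2% for genes acutely higher and 96.6% for genes acutely lower. The 3 d libraries and the controls share the titled time. Loss of the drug's effect and collection at a like time therefore cannot be told apart in this share. The share uses the 90 min libraries on both sides and acute genes were selected with those libraries and the controls, so it is a description with no test.

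The 95% interval of 3 d against control lay within 1.5-fold of control for 338 of the 499 acute genes (67.7%) and for 11258 of all 13090 genes (86%). Depth moved with this measure. Of the 383 acute genes whose mean log2 CPM reached 1, 337 (88%) lay within that margin, with a median return of 97.2%. Of the 116 below that level 1 lay within it (0.862%), and 20 of the 23 genes without a call at 3 d against 90 min were among them. A low gene can pass the count filter through the 1 group in which it is high. The 3 d and control ranges overlapped for 412 acute genes (82.6%). Over all 13090 genes tested these ranges lay apart in 2113 (16.1%), so overlap was about as common among all genes. In the 59 genes at least 8-fold higher at 90 min, the median return was 93.5%. Their median distance from control at 3 d was 0.33 on the log2 scale, and 15 (25.4%) lay within the margin. Among them were Efcab15 and Gm2446, at 0 counts in all controls, whose fitted values depend on the prior count. The part of low counts in these values was not tested.

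**Figure D3:**
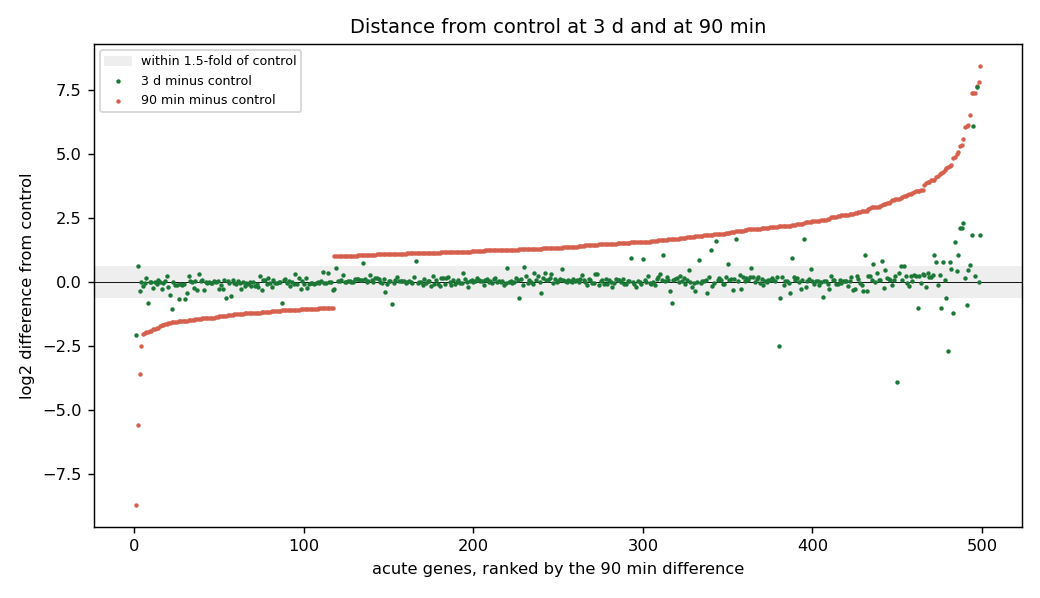
Log2 difference from control at 3 d (green) and at 90 min (red) for the 499 acute genes, ranked by the 90 min difference. The grey band marks 1.5-fold around control. Green points lie mostly in the band, with 338 genes whose whole 95% interval fits in it, and isolated green points near 6 to 8 belong to genes at 0 counts in all controls, for which the fitted value is not a measured fold.

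Genes called at 90 min by less than 2-fold are given by their counts alone. Of 1912 genes called higher under 2-fold at 90 min, 1657 were called lower at 3 d, and of 1909 called lower, 1612 were called higher. These genes were selected on the 90 min libraries, which both comparisons use, so the counts do not measure return. Not every difference between 3 d and 90 min began as a called change at 90 min. Of the 2442 genes higher at 3 d, 722 were not called at 90 min against control, and of the 2668 lower genes 643 were not. Among changes of at least 2-fold these were 33 of 134 higher and 21 of 382 lower genes. The comparisons of 90 min and of 3 d with control also share the control libraries, so none of these counts is independent of the others.

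Genes of 34 lists were then followed, 24 of pathways and 10 of cell type markers. 52 of their 681 tested members stand on more than 1 list, so the counts overlap. Each count is to be read against 18.7% of all genes higher and 20.4% lower at 3 d, and each median against 0.00158.

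The receptors were mixed. Of 6 tested adrenoceptor genes, 1 was higher, 2 were lower and 3 were not called at 3 d against 90 min (median log2 -0.46). Adra1b measured 0.158, 0.114 and 0.053 CPM at 3 d, against 1.57, 1.17 and 1.8 CPM at 90 min and 0, 0.0633 and 0.124 CPM in controls. The α1B receptor gene Adra1b was lower at 3 d (log2 -3.72, SE 0.69, edgeR adjusted p = 1.14e-05), on 3, 2 and 1 counts at 3 d against 28, 21 and 30 at 90 min. Levels of Adrb3 mRNA were 0.0526, 0.284 and 0.106 CPM at 3 d, 0.895, 1.17 and 0.962 CPM at 90 min and 0.108, 0.317 and 0.124 CPM in controls. Adrb3 was also lower (log2 -2.75, SE 0.64, edgeR adjusted p = 0.000453). Adra1d was at 6.75 to 8.73 CPM at 3 d and 7.83 to 9.61 CPM at 90 min (log2 -0.19, edgeR adjusted p = 0.234). Adra1a, Adra2b and Adra2c had at most 11 counts in any library and were not tested. Both lower members, Adra1b and Adrb3, reached the filter's minimum count of 10 only at 90 min. They passed the filter only through the group in which they were high. The number of lower members and the median therefore do not measure a change of the receptors as a set.

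Targets of cyclic AMP and CREB had the lowest median of the 24 pathway lists. Of 27 tested members 21 were lower, 3 higher and 3 not called, with a median log2 difference of -1.95. Crem stood at 15.7, 17.2 and 16.8 CPM at 3 d, 139, 161 and 142 CPM at 90 min and 13.4, 14.2 and 15.4 CPM in controls. Crem, whose inducible product represses CREB targets, was 8.90-fold lower at 3 d (log2 -3.15, SE 0.07, edgeR adjusted p = 1.13e-16). Pde4d was at 25.6, 22.6 and 22.6 CPM in the 3 d libraries, 110.3, 108 and 115 CPM in the 90 min libraries and 18.9, 23.7 and 23.1 CPM in controls. Pde4d codes for a phosphodiesterase that destroys cyclic AMP, and it was 4.70-fold lower (log2 -2.23, SE 0.07, edgeR adjusted p = 1.67e-14). Nr4a1, the third NR4A receptor gene, had a log2 difference of -3.31 and the kinase gene Sik1, an inhibitor of CREB coactivators, one of -1.49. The coactivator genes Crtc1, Crtc2 and Crtc3 made up the 3 higher members, at log2 0.22, 0.33 and 0.46. The list's median against control was 0.09 at 3 d and 2.07 at 90 min.

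Fos, on the same list, returned least among its members called acute. For Fos the levels were 6.63, 7.71 and 7.94 CPM at 3 d, 11.6, 9.5 and 12.3 CPM at 90 min and 3.78, 2.91 and 2.54 CPM in controls. Fos was 1.5-fold lower at 3 d than at 90 min (log2 -0.59, SE 0.13, edgeR adjusted p = 0.00179), which undid 31.8% of its acute log2 change. Every 3 d library lay below every 90 min library and above every control. The remaining difference from control was 1.26 on the log2 scale (95% interval 0.92 to 1.60, edgeR adjusted p = 0.00508), and this call was lost in 1 of 9 fits without 1 library (control 2, adjusted p = 0.0514).

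Of 33 immediate early transcription factor genes 19 were lower, 5 higher and 9 not called (median log2 -0.40). Fosl2 measured 100.4, 96.5 and 84.6 CPM at 3 d, against 731, 652 and 744 CPM at 90 min and 88.6, 92.4 and 99.6 CPM in controls. Fosl2, which codes for an AP-1 protein, was 7.55-fold lower at 3 d (log2 -2.92, SE 0.06, edgeR adjusted p = 1.94e-16). Klf4 and Csrnp1 also fell, by 2.40 and 2.54 on the log2 scale. Levels of Klf15 mRNA were 43, 40.2 and 42.6 CPM at 3 d, 19.4, 17.1 and 17.3 CPM at 90 min and 42.8, 41.4 and 43.3 CPM in controls. Klf15, a Krüppel-like factor gene that is induced by glucocorticoids, was 2.34-fold higher at 3 d (log2 1.23, SE 0.07, edgeR adjusted p = 5.35e-11), and Klf10 was 1.67-fold higher. Egr1, a classical early gene, was not called between the times (log2 0.49, SE 0.20, edgeR adjusted p = 0.0643).

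Inhibitors that feed back on MAP kinases were lower in 13 of 19 members, higher in 4 and not called in 2 (median log2 -1.05). Dusp10 stood at 10.9, 10.3 and 10.5 CPM at 3 d, 52.4, 55.6 and 52.7 CPM at 90 min and 10.9, 9.31 and 10.4 CPM in controls. Dusp10, a phosphatase gene for stress-activated kinases, was 5.07-fold lower (log2 -2.34, SE 0.08, edgeR adjusted p = 2.63e-14). Errfi1 was at 61.9, 65.2 and 66.6 CPM in the 3 d libraries, 259.9, 238 and 265 CPM in the 90 min libraries and 59.9, 56.1 and 54.8 CPM in controls. Errfi1, an inhibitor of the EGF receptor with the full CREB element printed above, was 3.94-fold lower (log2 -1.98, SE 0.05, edgeR adjusted p = 1.54e-15). Dusp14, Dusp1 and Dusp5 had log2 differences of -2.87, -2.67 and -2.31. Dusp6, the ERK phosphatase gene, was higher at 3 d (log2 0.55, SE 0.10, edgeR adjusted p = 0.000218).

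Genes of receptor desensitization and cyclic AMP turnover were lower in 11 of 24 members, higher in 5 and not called in 8 (median log2 -0.15), and 9 were lower and 8 higher with upper quartile scaling. For Rgs2 the levels were 17.9, 19.2 and 15.5 CPM at 3 d, 108, 106 and 100.3 CPM at 90 min and 18.5, 16.9 and 16.2 CPM in controls. Rgs2 codes for a protein that switches off Gq proteins, and it was 5.97-fold lower at 3 d (log2 -2.58, SE 0.07, edgeR adjusted p = 2.58e-15). Arrdc3 measured 45, 42.8 and 37.8 CPM at 3 d, against 179, 175 and 177 CPM at 90 min and 38, 44.8 and 41.3 CPM in controls. Arrdc3 codes for an arrestin-like protein, and it was 4.23-fold lower (log2 -2.08, SE 0.06, edgeR adjusted p = 8.29e-15). Its relative Txnip, an inhibitor of glucose uptake, moved the other way and was 2.10-fold higher at 3 d (log2 1.07, SE 0.04, edgeR adjusted p = 4.39e-13). Rgs3 was 2.35-fold higher at 3 d (log2 1.23).

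Secreted growth and neurotrophic factors were lower in 18 of 36 members, higher in 5 and not called in 13 (median log2 -0.17), and 16 were lower and 8 higher with upper quartile scaling. Levels of Fgf2 mRNA were 41.5, 42.9 and 40.5 CPM at 3 d, 139, 145 and 152 CPM at 90 min and 39.4, 39.3 and 40.6 CPM in controls. Fgf2, a mitogen for astrocytes, was 3.49-fold lower at 3 d (fell by 1.8 on the log2 scale, SE 0.05, edgeR adjusted p = 2.58e-15). Inhba stood at 126, 109 and 108 CPM at 3 d, 389, 446 and 496 CPM at 90 min and 118, 115 and 128 CPM in controls. Inhba, the activin A subunit gene, was 3.88-fold lower (log2 -1.96, SE 0.07, edgeR adjusted p = 4.40e-13). The neurotrophic genes Gdnf and Bdnf were 6.01-fold and 2.60-fold lower, against the rise of Fgf9 described above.

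Of 26 cytokine, chemokine and NF-κB feedback genes 13 were lower, 5 higher and 8 not called (median log2 -0.17). Nfkbie was at 15, 15.9 and 15.2 CPM in the 3 d libraries, 56.7, 58.7 and 57.5 CPM in the 90 min libraries and 14, 13.2 and 14.8 CPM in controls. Nfkbie was 3.74-fold lower and Nfkbia 2.16-fold higher at 3 d, and both code for inhibitors that hold NF-κB in the cytoplasm (log2 -1.90 and 1.11, edgeR adjusted p = 8.16e-14 and 4.09e-10). For Nfkbia the levels were 43.5, 49.3 and 44.8 CPM at 3 d, 20.4, 21.2 and 22.1 CPM at 90 min and 48.3, 45.1 and 51.6 CPM in controls. Neither had overlapping 3 d and 90 min libraries, which was so for 47.1% of all genes tested. The cytokine gene Il6 was at 0.263, 0.0567 and 0 CPM at 3 d, 2.63, 2.28 and 3.25 CPM at 90 min and 0.162, 0.0633 and 0 CPM in controls (log2 -4.56, SE 0.76, edgeR adjusted p = 9.66e-07). Socs3, the feedback inhibitor of STAT3 signalling, was 2.17-fold higher at 3 d (log2 1.12).

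The highest medians of the 24 pathway lists were those of interferon, BMP and Notch, clock and nuclear receptor genes. Of 26 interferon-stimulated genes 15 were higher, 1 lower and 10 not called (median log2 0.36). Irf1 measured 29.6, 33.6 and 29.9 CPM at 3 d, against 13, 12.6 and 12.3 CPM at 90 min and 31.5, 32.2 and 28.1 CPM in controls. Irf1, an interferon response factor, was 2.45-fold higher at 3 d (log2 1.29, SE 0.08, edgeR adjusted p = 4.42e-10). Levels of Ifit3 mRNA were 65.9, 68.8 and 61.8 CPM at 3 d, 39.9, 43.7 and 37.7 CPM at 90 min and 62, 59.3 and 56.3 CPM in controls. Ifit3, which codes for an antiviral RNA-binding protein, was 1.62-fold higher at 3 d (log2 0.69, SE 0.06, edgeR adjusted p = 4.61e-08). With upper quartile scaling 15 were higher and 0 lower. Against control, 0 of the 26 were called at 3 d, where 0.115% of all genes were. At 90 min 11 were lower and 1 higher than control, where 15.5% of all genes were lower and 17.5% higher.

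Of 25 BMP, Notch and Id genes 15 were higher, 2 lower and 8 not called (median log2 0.27). Id3 stood at 243, 246 and 255 CPM at 3 d, 139, 122 and 116 CPM at 90 min and 262, 249.7 and 246 CPM in controls. Id3, a BMP target that blocks basic helix-loop-helix factors, was 1.98-fold higher at 3 d (log2 0.98, SE 0.06, edgeR adjusted p = 9.72e-11). Notch1 was at 137, 137 and 124 CPM in the 3 d libraries, 71.7, 70.8 and 78.7 CPM in the 90 min libraries and 131, 139 and 139.9 CPM in controls. The receptor gene Notch1 was 1.8-fold higher at 3 d (log2 0.85, SE 0.05, edgeR adjusted p = 4.28e-10). The inhibitory Smad gene Smad6 and the BMP signal transducer gene Smad9 were 2.20-fold and 2.52-fold higher. The Notch target gene Hey1 and Fst, which codes for the activin inhibitor follistatin, were the 2 lower members, at log2 -0.54 and -0.33.

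Nuclear receptor and homeobox genes were higher in 15 of 33 members, lower in 7 and not called in 11 (median log2 0.14). Besides Irx1 at 3.30-fold, Irx2 was 2.65-fold higher at 3 d, whereas their relative Irx3 was 1.76-fold lower (log2 -0.82, edgeR adjusted p = 5.94e-07). The glucocorticoid receptor gene Nr3c1 and the retinoic acid receptor gene Rara were 1.58-fold and 1.81-fold higher. Of 22 clock genes 11 were higher, 4 lower and 7 not called (median log2 0.14). For Per1 the levels were 23.8, 26.3 and 21.3 CPM at 3 d, 99.1, 82.8 and 94.1 CPM at 90 min and 20.4, 23.1 and 22.3 CPM in controls. Per1, a repressor of the clock with a known CREB site, was 3.87-fold lower (log2 -1.95, SE 0.08, edgeR adjusted p = 6.02e-13), and Nfil3, a repressor of clock output, 5.49-fold lower (log2 -2.46, SE 0.08, edgeR adjusted p = 1.33e-14). Nr1d1, Dbp and Per3 were 1.98-fold, 1.67-fold and 1.57-fold higher.

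Metabolic lists had medians near that of all genes, with large changes in single members. Of 30 glycolysis and lactate genes 13 were lower, 4 higher and 13 not called (median log2 -0.06). Hk2 measured 30.0, 29.2 and 30.2 CPM at 3 d, against 184, 172 and 188 CPM at 90 min and 27.4, 27.5 and 27.5 CPM in controls. Hk2, the inducible hexokinase gene, was 6.09-fold lower at 3 d (log2 -2.61, SE 0.05, edgeR adjusted p = 1.86e-17), and Pdk4, which codes for a kinase that holds back pyruvate oxidation, 2.17-fold lower (log2 -1.12, SE 0.08, edgeR adjusted p = 1.49e-09). Of 23 glycogen genes 6 were higher, 2 lower and 15 not called (median log2 0.04). The 2 lower were Pygb, the brain glycogen phosphorylase gene, at log2 -0.34 (SE 0.04, edgeR adjusted p = 4.56e-07), and the phosphoglucomutase gene Pgm2 at log2 -0.77 (SE 0.06, edgeR adjusted p = 3.45e-09). Ppp1r3b, whose product targets a phosphatase to glycogen, was 1.82-fold higher. Of 25 cholesterol genes 7 were higher and 7 lower (median log2 0.07), and with upper quartile scaling 12 were higher and 6 lower. The mevalonate pathway genes Pmvk and Mvk were 3.18-fold and 2.42-fold lower (log2 -1.67 and -1.27, edgeR adjusted p = 3.28e-14 and 1.08e-10).

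In each stress list more members were lower than higher, with a median not far below that of all genes. Of 20 heat shock chaperone genes 11 were lower and 2 higher (median log2 -0.14), led by Bag3 and Hspa4 at log2 -1.29 and -1.03 (edgeR adjusted p = 1.27e-13 and 3.73e-13). Of 30 unfolded protein and integrated stress response genes 12 were lower and 4 higher (median log2 -0.10). Ern1, which codes for the endoplasmic reticulum sensor IRE1α, was 3.94-fold lower (log2 -1.98, SE 0.05, edgeR adjusted p = 4.75e-15). Of 26 NRF2 and antioxidant genes 9 were lower and 4 higher (median log2 -0.08), and 8 and 7 with upper quartile scaling. Srxn1 was 3.46-fold and Txnrd1 1.86-fold lower, both genes of thiol repair (log2 -1.79 and -0.90, edgeR adjusted p = 8.59e-15 and 1.80e-11). The cystine transporter gene Slc7a11, listed with the stress response, was 4.11-fold lower (log2 -2.04, SE 0.12, edgeR adjusted p = 1.69e-10).

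Genes of astrocyte function were divided. Of 28 genes of glutamate handling and homeostasis 6 were higher, 7 lower and 15 not called (median log2 0.03), and 10 were higher and 7 lower with upper quartile scaling. Slc1a1 and the gap junction gene Gja1 were lower (log2 -4.06 and -1.13), as was the glutamate transporter gene Slc1a3 (log2 -0.47, edgeR adjusted p = 2.24e-08), while the other main astrocyte transporter gene Slc1a2 was higher (log2 0.25, edgeR adjusted p = 0.00741). Of 34 reactive astrocyte genes 8 were higher, 11 lower and 15 not called (median log2 0.01). Cd14 and Ptx3 were 4.25-fold and 3.01-fold lower (log2 -2.09 and -1.59, edgeR adjusted p = 5.65e-14 and 1.10e-14), and the sphingosine phosphate receptor gene S1pr3 was 2.13-fold higher. Of the 13 astrocyte markers 6 were higher and 2 lower (median log2 0.18), among them Sox9 at 1.62-fold and Fgfr3 at 1.77-fold higher.

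Matrix genes were lower in 22 of 45 members, higher in 4 and not called in 19 (median log2 -0.17), and 17 were lower and 5 higher with upper quartile scaling. Among them was Adamts1, described above at 19.7-fold lower. The collagen gene Col1a1 had a log2 difference of -0.24 (SE 0.08, edgeR adjusted p = 0.0246). Targets of YAP and SRF had 8 lower, 7 higher and 9 uncalled of 24 members (median log2 -0.01, 0.04 with upper quartile scaling). Tpm4, a tropomyosin gene, was 1.74-fold lower and Amotl2, a YAP target that feeds back on it, 1.99-fold higher (log2 -0.80 and 0.99, edgeR adjusted p = 1.36e-11 and 3.05e-12).

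Markers of other cells moved with these groups. At 3 d against 90 min, fibroblast and meningeal markers were lower in 7 of 13 and higher in 1 (median log2 -0.24), pericyte and smooth muscle markers lower in 4 of 7 and higher in 1 (median log2 -0.20), and neural progenitor markers lower in 5 of 9 and higher in 1 (median log2 -0.36). With upper quartile scaling the fibroblast and meningeal list had 6 lower and 2 higher, the progenitor list 5 lower and 2 higher, and the oligodendrocyte list 2 higher and 1 lower. The pericyte markers summed to 706 to 726 CPM at 3 d, 566 to 624 CPM at 90 min and 772 to 782 CPM in controls. Their sum was thus higher at 3 d than at 90 min, although more members were called lower than higher. The progenitor markers summed to 872 to 933 CPM at 3 d, 1159 to 1165 CPM at 90 min and 944 to 1031 CPM in controls. Of the neuron markers 5 of 13 were tested and 2 were lower, Nefl and Nefm, both at most 1.34 CPM in any library. In the oligodendrocyte list Mbp was the 1 lower of 6, in the endothelial list 1 of 6 was higher and 1 lower, and in the ependymal list Foxj1 was the 1 higher of 4. In the microglia list 1 of 3 was lower, and the 1 tested choroid plexus marker was not called. Their part in the results on matrix genes and other lists was not tested.

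Cell cycle and ribosome lists held members that were lower at 3 d and 1 that was higher, and most cell cycle members were not called. Of 35 genes of the G2 and M phases 13 were lower, 0 higher and 22 not called at 3 d against 90 min (median log2 -0.22, with an SD of 0.126 between library medians). Their median against control was -0.19 at 3 d and 0.04 at 90 min. Against control 0 members were called at 3 d and 3 at 90 min, where 0.115% and 33% of all genes were called. Of 36 S phase genes 13 were lower, 1 higher and 22 not called (median log2 -0.21, with an SD of 0.123 between library medians), and their median against control was -0.13 at 3 d and 0.05 at 90 min. Levels of Kif11 mRNA were 12.2, 10.2 and 9.9 CPM at 3 d, 17.4, 17.2 and 20.2 CPM at 90 min and 15.2, 12 and 13.8 CPM in controls. Kif11, a motor of the mitotic spindle, was 1.70-fold lower (log2 -0.76, SE 0.11, edgeR adjusted p = 1.75e-05). The centromere histone gene Cenpa had a log2 difference of -0.67 (SE 0.09, edgeR adjusted p = 1.29e-05) and the chromatin assembly gene Chaf1b one of -0.90 (SE 0.09, edgeR adjusted p = 2.08e-07). Rrm1 stood at 111, 104 and 116 CPM at 3 d, 189, 194 and 197 CPM at 90 min and 119, 123 and 125 CPM in controls. Rrm1, a ribonucleotide reductase subunit gene, was 1.75-fold lower (log2 -0.81, SE 0.05, edgeR adjusted p = 8.80e-11). Of 34 ribosome biogenesis genes 20 were lower, 0 higher and 14 not called (median log2 -0.23), with a median against control of -0.08 at 3 d and 0.17 at 90 min. Bysl and Wdr43, factors of small subunit assembly, were 2.56-fold and 1.73-fold lower (log2 -1.35 and -0.79, edgeR adjusted p = 9.03e-12 and 5.29e-10).

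**Figure D4:**
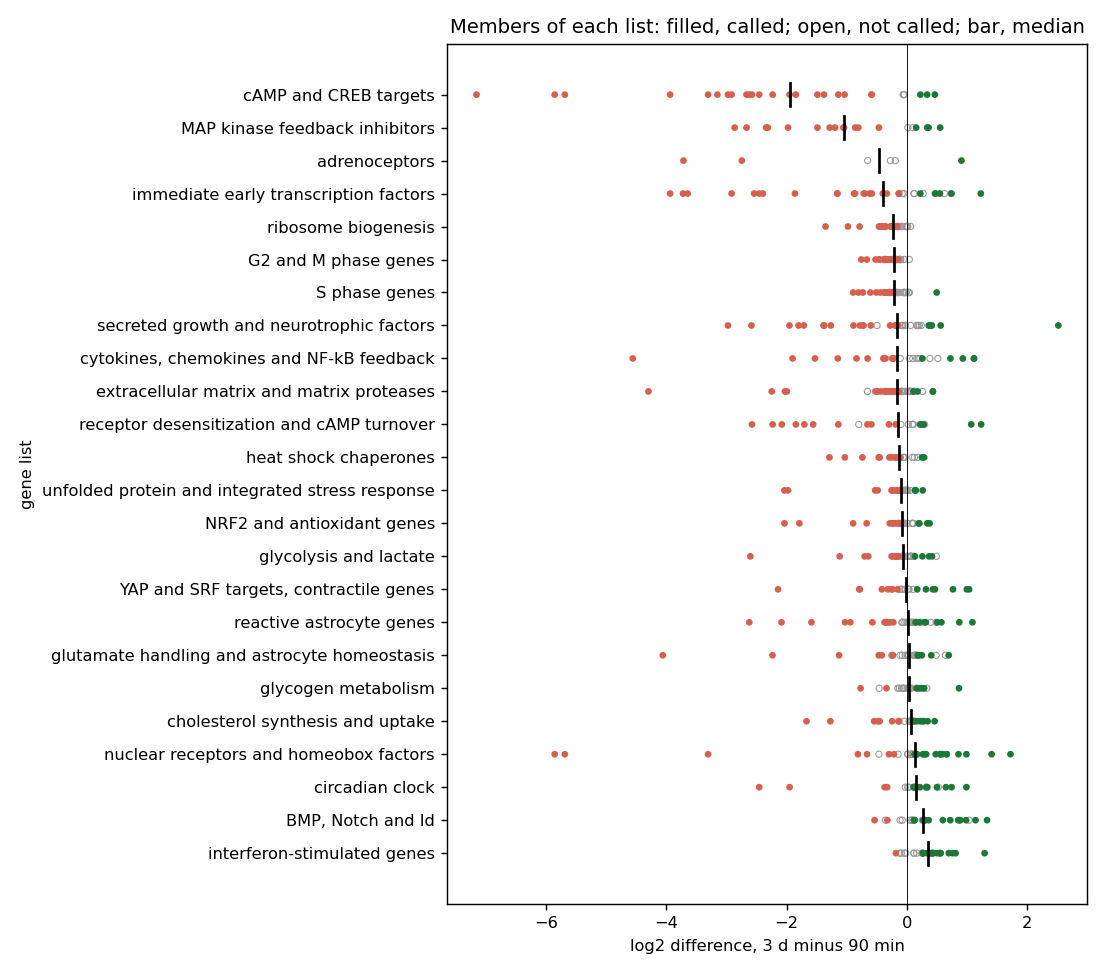
Log2 difference between 3 d and 90 min (horizontal axis) for each tested member of the 24 pathway lists, ordered by the list's median. Filled points were called, open points were not, and the bar is the median, which runs from -1.95 for cyclic AMP and CREB targets to 0.36 for interferon-stimulated genes.

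Few genes were called at 3 d against control, 15 of 13090 (0.115%), 5 higher (0.0382%) and 10 lower (0.0764%). At least 2-fold, 3 were higher (0.0229%) and 0 lower. Of the 15, 13 were also called at 3 d against 90 min. Leaving out 1 library at a time gave 0 (without control 2) to 83 (without 90 min library 3) in place of the 15, with 29 without 90 min library 2 and 3 to 5 without control 1, control 3, 3 d library 2 or 3 d library 3. Of the 13 genes called in both, 4 were higher than control at 3 d (Nr4a3, Fos, Xkrx and C3) and 9 lower. Nr4a3, Fos and Lmnb1 were acute genes. Lmnb1 was at 30.3, 27.9 and 28.2 CPM in the 3 d libraries, 140.0, 137 and 141 CPM in the 90 min libraries and 35.9, 36.6 and 35.7 CPM in controls. Lmnb1, which codes for the nuclear lamina protein lamin B1, was 4.84-fold lower at 3 d than at 90 min (log2 -2.27, SE 0.05, edgeR adjusted p = 6.98e-17). It ended below every control (log2 -0.32, edgeR adjusted p = 0.0207), so that 116% of its acute change had been undone. Nr4a3 had returned by 89.9% and Fos by 31.8%.

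In the others, 3 d stood apart from 90 min and from control together. For Xkrx the levels were 3.58, 3.8 and 3.65 CPM at 3 d, 0.615, 0.611 and 1.38 CPM at 90 min and 1.24, 1.58 and 1.48 CPM in controls. Xkrx, a gene of the XK family of membrane proteins, was 4.25-fold higher at 3 d than at 90 min (log2 2.09, SE 0.28, edgeR adjusted p = 3.81e-06) and also above control (log2 1.36, edgeR adjusted p = 0.0281). C3 measured 274, 265 and 273 CPM at 3 d, against 218, 223 and 213 CPM at 90 min and 219, 232 and 236 CPM in controls. C3, the central complement gene, was 1.24-fold higher than at 90 min (log2 0.31, SE 0.04, edgeR adjusted p = 7.05e-06), and its 3 d libraries lay above all 6 others.

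Levels of Ogn mRNA were 58.4, 72.7 and 63.7 CPM at 3 d, 81.4, 82.1 and 86.6 CPM at 90 min and 90.1, 91.5 and 83.4 CPM in controls. Fmod stood at 24.1, 25.5 and 24.2 CPM at 3 d, 37, 34.3 and 34.9 CPM at 90 min and 32.6, 32.7 and 33 CPM in controls. Mgp was at 25.6, 25.7 and 26.5 CPM in the 3 d libraries, 35.1, 30.9 and 30.5 CPM in the 90 min libraries and 35.4, 34.1 and 32.6 CPM in controls. Ogn and Fmod code for small leucine-rich proteoglycans and Mgp for an inhibitor of calcification, and all 3 are fibroblast and meningeal markers on the list above. At 3 d they lay below every 90 min and every control library. Against 90 min their log2 differences were -0.36, -0.52 and -0.31 (edgeR adjusted p = 0.000229, 2.16e-06 and 0.00162), and against control -0.45, -0.41 and -0.39 (edgeR adjusted p = 0.0162, 0.0187 and 0.0281). The summed level of the fibroblast and meningeal markers was 2106 to 2321 CPM at 3 d and 2551 to 2828 CPM in controls, and its part in these 3 genes was not tested.

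For Pkp1 the levels were 26.2, 19.3 and 23.1 CPM at 3 d, 40.0, 33.3 and 42.2 CPM at 90 min and 34.8, 33 and 38.1 CPM in controls. Pkp1, a desmosome gene, was 1.68-fold lower than at 90 min (log2 -0.75, SE 0.10, edgeR adjusted p = 1.14e-05). Acta2 (smooth muscle actin), Ncl (nucleolin), Anp32b (a histone chaperone) and Eif2s2 (a translation initiation factor) had log2 differences of -0.26, -0.25, -0.20 and -0.36 against 90 min and -0.30, -0.23, -0.30 and -0.20 against control. Leaving out 1 library at a time, Fos kept its call against control in 8 of 9 fits and Ogn in 7, Nr4a3 in 5, and the other 10 genes in 2 to 4.

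**Figure D5:**
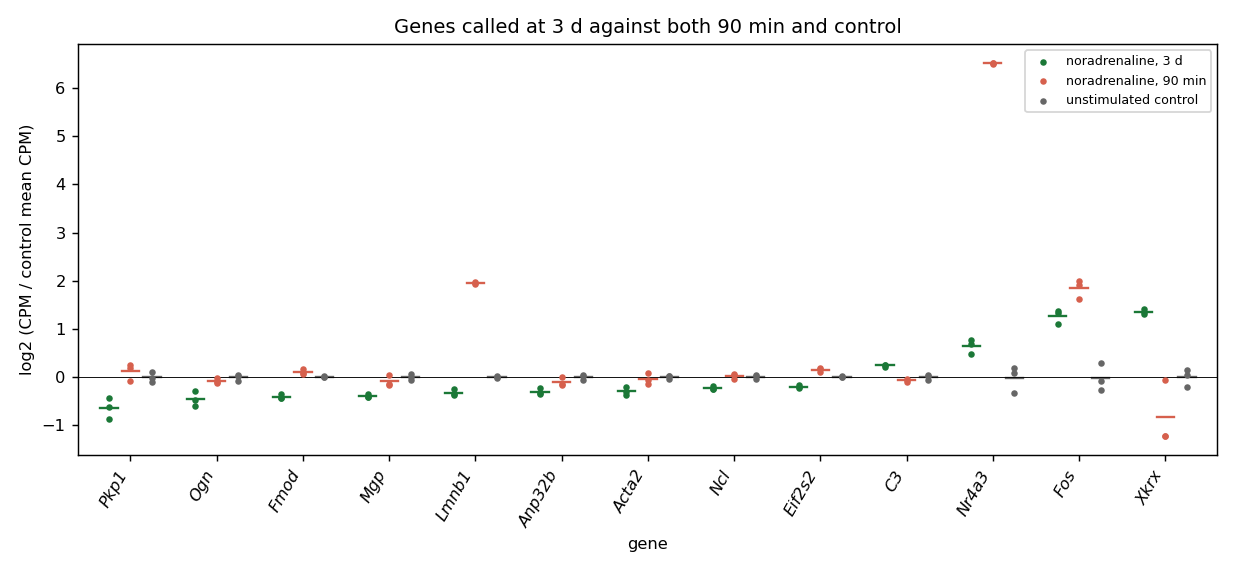
Level in each library relative to the control mean (log2, points) with group means (bars) for the 13 genes called at 3 d against both 90 min and control, ordered by the 3 d difference from control. Nr4a3, Lmnb1 and Fos stand high at 90 min, while for Ogn, Mgp, Anp32b, Acta2, Ncl and C3 the 90 min points lie near those of control.

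At the low end of return stood 5 acute genes, all at low levels. Efcab15 measured 1.21, 0.454 and 2.38 CPM at 3 d, against 1.29, 1.67 and 1.32 CPM at 90 min and 0, 0 and 0 CPM in controls. Efcab15, predicted from its name to hold a calcium-binding EF hand, had 0 counts in every control, 76 counts in all at 3 d and 75 at 90 min. Against 3 counts over the control group this is at least 23-fold higher at 3 d and at least 24-fold higher at 90 min. Whether the 0 counts in controls reflect absent RNA or the assignment of reads to this gene was not tested, so these bounds and its low return hold for the deposited counts only. It was not called between 3 d and 90 min (edgeR adjusted p = 0.917) and was called at 3 d against control (edgeR adjusted p = 0.0207). Levels of Adra2a mRNA were 0.473, 0.624 and 0.371 CPM at 3 d, 0.503, 0.667 and 0.601 CPM at 90 min and 0.108, 0 and 0.371 CPM in controls. Adra2a, the α2A receptor gene, had undone 14.9% of its acute change and was called neither against 90 min (log2 -0.28, SE 0.50, edgeR adjusted p = 0.698) nor against control (edgeR adjusted p = 0.471). Naprt and Slc9b2 had undone 16.3% and 25.1%, with at most 1.17 CPM for Naprt and 5.08 CPM for Slc9b2 in any library, and neither was called between the times. Gm2446 had counts in 1 of 3 libraries at 3 d, 2 of 3 at 90 min and in no control.

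At the high end stood Cidea, Cpm, Pax1, Tnn and Rtl5, which went past control by the fitted values. Pax1 and Cidea had 0 counts in all 3 d libraries against 55 and 52 counts over the 90 min libraries, at least 19.4-fold and 18.3-fold higher at 90 min when set against 3 counts over the 3 d group. Pax1 had 2 counts over the controls, so a level below control is not detectable at this depth. Cidea had 5 counts over the controls, too few to set a minimum fold below control, and the difference from control was not called (edgeR adjusted p = 0.496). Cpm and Tnn, which code for a carboxypeptidase and for the matrix protein tenascin N, returned by 216% and 180%, with at most 1.4 and 1.5 CPM in any library. Rtl5 stood at 5, 5.84 and 4.03 CPM at 3 d, 22.2, 19.3 and 14.1 CPM at 90 min and 6.7, 7.6 and 8.96 CPM in controls. Rtl5, a gene derived from a retrotransposon, was 3.75-fold lower at 3 d than at 90 min (log2 -1.91, SE 0.17, edgeR adjusted p = 3.43e-08), with a return of 151%. All its 3 d libraries lay below all its controls, by a difference that was not called (log2 -0.64, edgeR adjusted p = 0.216). Such a gap from control was present in 16.1% of all genes tested.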

How the data were processed

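RNA of 9 samples of cultured mouse astrocytes was sequenced as poly-A libraries, 3 per group. The authors deposited 1 table of estimated counts per gene, made with fastp 0.23.4 and Salmon 1.8.0 and build mm39, per the submitters' processing notes. The annotation release, the summing to genes, the rounding to whole numbers and the strand setting are not stated by the notes or labels. Salmon shares reads between similar transcripts, so near-identical gene copies and overlapping genes are uncertain.

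Counts were fitted with edgeR 4.0.16 (R 4.3.3, limma 3.58.1) by the quasi-likelihood test, in 1 fit over all 9 libraries with TMM factors. filterByExpr (minimum count 10, total 15) left 13090 genes, and 9010 were not tested. A gene is called at a Benjamini-Hochberg adjusted p below 0.05. Intervals cover 95%. Alternatives used DESeq2 1.42.0, other scalings, filters and thresholds, a replicate block and fits without each library. The 1 row without a symbol held at most 0.000668% of a library. With 15529158 to 18729980 counts per library, 3 counts are 0.158 to 0.190 CPM.

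The members and lists were chosen with earlier results of these data known. The rule for named genes took the 10 highest and 10 lowest called genes that averaged 1 or more in log2 CPM and had ranges apart, leaving out predicted genes. It added the 2 genes of smallest p per pathway list, every gene called in both 3 d comparisons, the 5 acute genes with the lowest and the 5 with the highest return, and Vim and Gfap. Of these 84 genes, 60 were lower, 17 higher and 7 not called. Other genes were named after their values were seen. Values of some of the genes that the rule or the lists hold are not reported here. RefSeq promoter windows (GRCm38.p6, Python 3.11.15) matched 10417 tested genes by identifier and 1 by symbol. Their build differs from that of the counts, and no other coordinates are given.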

Additional observations from a re-analysis of the deposited data

How the results depend on the processing

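Calls at 3 d against 90 min numbered 4266 to 5319 without single libraries, and 1644 (654 higher, 990 lower) when tested against a fold of 1.2 by glmTreat. At an adjusted p below 0.01, 1596 genes were higher. Replicate numbers did not pair the libraries, with correlations of same-numbered 3 d and 90 min libraries of -0.0277, 0.0491 and -0.148. With a replicate block 4662 genes were called (2207 higher, 2455 lower). At 90 min against control, 3907 were called with the block and 1528 by glmTreat. The 15 calls at 3 d against control became 205 without a filter on low counts, 68 with DESeq2, 76 with only the compared groups in the fit, 3 with the replicate block, 1 at an adjusted p below 0.01, 1 by glmTreat and 0 to 83 without single libraries. The 83 came without 90 min library 3 and 29 without library 2. Without control library 2 the edgeR count was 0, with 1301 genes at an unadjusted p below 0.05. The median return was 96.3% without the filter, 98.5% on linear CPM and 96.2% to 97.4% without single libraries. With acute genes defined at 1.5-fold, 834 lay within the margin, and with a narrower margin of 0.322 on the log2 scale 243 of the 499 did. The number of acute genes (388 to 578) and the share within the margin (60.03% without the filter to 86.1% with a minimum count of 50) were followed as measures chosen after seeing the data. Of the named genes, those that turned direction were not called. Without single libraries Efcab15 ranged over log2 -0.76 to 0.33 (0.01 without 3 d library 1, 0.06 without 90 min library 2), Gfap over -0.24 to 0.031, Naprt over -0.81 to 0.22 (0.13 without 3 d library 1) and Slc9b2 over -0.042 to 0.49. By glmTreat, Acta2, Anp32b, C3, Mgp, Ncl and Ogn lost their call against 90 min. The cause of these shifts was not tested. Depth limits the genes below a mean log2 CPM of 1.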
